A study of Mus musculus with 12 samples.

Results

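The outcomes of Cas9 cutting at target site S7 were described on single DNA molecules from mouse skeletal muscle stem cells (MuSCs). All edited samples of S7 and all indel entries listed for them were taken, which gave 2 edited samples of the 12 samples in the series and 334 of the 2578 indel molecules listed for 4 target sites. The MuSCs came from heterozygous Pax7Cas9 mice, in which the Cre recombinase under control of Pax7 switches on a Cas9-EGFP transgene at Rosa26, so that Cas9 and EGFP are made in MuSCs and in their proliferating precursors. An AAV9 virus carrying the sgRNA was injected into the muscle of these mice early after birth, while the precursors were still dividing, and GFP+ MuSCs were sorted from hindlimb muscle weeks later. The study's methods and the sample labels name an AAV9-sgRNA virus, whereas a legend of the study names dual sgRNAs for this assay, and a single cut per site was assumed here. Genomic DNA was read by individual DNA molecule sequencing (IDM-seq), in which starting molecules are marked with random tags (unique molecular identifiers, UMIs) before amplification and Nanopore long-read sequencing. S7 replicate 1 had 10848 UMI types and 95 indels, and S7 replicate 2 had 8783 UMI types and 240 indels. The unedited S7 library had no entries in the tables used and was not analysed here, so no background stands beside the values of S7. By the study's methods, indels also seen in unedited libraries had been removed.

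When Cas9 cuts both DNA strands, the broken ends are mostly rejoined by non-homologous end joining (NHEJ), which often leaves insertions or deletions of a few bases, or by microhomology-mediated end joining (MMEJ). In MMEJ the ends are trimmed until short identical stretches on either side of the break can pair, and the stretch between them, with a single copy of the repeat, is lost. A base pair or more of identity at a junction, called microhomology (MH), also occurs by chance, so MH alone does not name the pathway. Ctcf, the gene in which S7 lies, encodes a zinc finger DNA-binding protein that organises chromatin loops and insulates regulatory domains.

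The deposited deleted sequences of S7 together covered 1211 bases that matched the mouse genome (GRCm38) at a single place, chr8:105663272-105664482, which runs from intron 2 into exon 3 of Ctcf (ENSMUSG00000005698, chr8:105636568-105682922, plus strand). The cut lies in exon 3. Exon 3 of its protein-coding transcript runs over chr8:105663754-105664543 and holds the start codon at chr8:105663763-105663765, so that it is the first coding exon. Positions below are counted from the base that the authors give as the cut site (chr8:105663849, position 0), with negative positions upstream in the direction of Ctcf transcription. The start codon then lies at positions -86 to -84 and exon 3 at -95 to 694. The sgRNA sequence was not in the files. From the convention that fits all 4 sites, the PAM was read as AGG at positions 3 to 5, with the cut between positions -1 and 0. The sequence around the cut is shown because the repeats at its sides recur at the S7 junctions. Capitals mark the 20 bases of the inferred protospacer and the PAM.
S7 window, chr8:105663809-105663888, plus strand: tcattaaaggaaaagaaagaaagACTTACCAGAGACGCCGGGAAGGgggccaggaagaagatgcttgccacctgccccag

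The products of the recurrent deletions show which of these repeats lie at their junctions. Whether repair used them was not tested. Each sequence below joins the 20 reference bases left of a deletion to the 20 bases right of it. Capitals mark the MH, the bases that were present at both ends and are kept once in the product. These 10 types are the most frequent ones of S7 whose deleted sequences were deposited, down to the 21 bp type found in both replicates.
39 bp deletion, -12 to 26: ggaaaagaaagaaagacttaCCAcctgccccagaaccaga
38 bp deletion, -24 to 13: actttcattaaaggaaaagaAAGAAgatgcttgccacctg
37 bp deletion, -20 to 16: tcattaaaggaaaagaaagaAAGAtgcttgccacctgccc
42 bp deletion, -28 to 13: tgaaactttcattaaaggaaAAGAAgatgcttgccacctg
34 bp deletion, -20 to 13: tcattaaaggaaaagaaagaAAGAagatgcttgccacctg
2 bp deletion, -1 to 0: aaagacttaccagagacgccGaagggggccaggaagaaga
12 bp deletion, -4 to 7: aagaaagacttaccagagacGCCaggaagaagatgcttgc
31 bp deletion, -18 to 12: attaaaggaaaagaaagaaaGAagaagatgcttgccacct
44 bp deletion, -33 to 10: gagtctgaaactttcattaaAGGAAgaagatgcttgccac
21 bp deletion, -12 to 8: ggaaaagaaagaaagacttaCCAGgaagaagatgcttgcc

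Nearly all S7 molecules with an indel carried a deletion. With 1 event kept per UMI, replicate 1 held 89 deletions, 4 insertions and 1 inversion. Replicate 2 held 231 deletions, 8 insertions and 1 inversion. A further large insertion counted for replicate 1 was not analysed here. Deletion counts equalled the deposited counts in all 8 edited samples of the series. Molecules that carry the same deletion may descend from a single edited cell, so the intervals below, 95% Wilson intervals, cover counting error only.

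S7 deletions were long and rarely shorter than 10 bp. Their median was 113 bp in replicate 1, with quartiles at 44 and 461 bp, and 120 bp in replicate 2, with quartiles at 42 and 471 bp. Sizes ran from 2 to 1628 bp in replicate 1 and from 1 to 1501 bp in replicate 2. Deletions under 10 bp made up 2 of 89 (2.25%, 95% interval 0.618% to 7.83%) in replicate 1 and 11 of 231 (4.76%, 2.68% to 8.32%) in replicate 2. In the 6 samples of S1, S18 and S28 this share lay between 32.0% and 48.5%, so the groups did not overlap. The threshold of 10 bp was picked after its values were seen, and the difference is given without a test. The largest single class of S7 was that from 50 bp to under 200 bp, with 26 deletions (29.2%) in replicate 1 and 60 (26.0%) in replicate 2. It was followed by 10 to 49 bp, with 25 (28.1%) and 59 (25.5%).

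**Figure D1:**
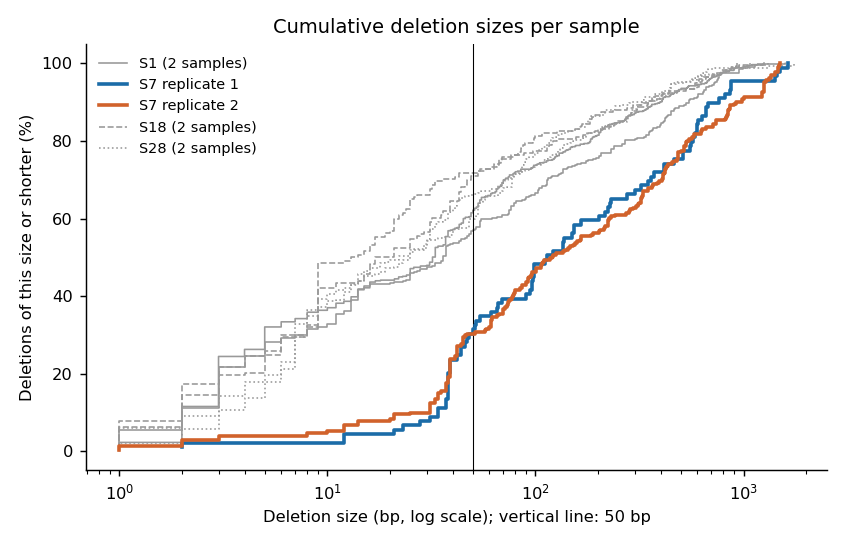
Cumulative share of deletions (%) by deletion size (bp, log scale) for each edited sample, with S7 in colour and the samples of S1, S18 and S28 in grey. The S7 curves stay below 10% up to a size of 10 bp, cross 50% at 113 and 120 bp, and lie below those of the other 6 samples over most of the range.

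The size profile did not differ detectably between the S7 replicates. With two-sided Fisher's exact tests of 7 size classes and Benjamini-Hochberg adjustment, 0 classes passed after adjustment, 0 had an unadjusted p below 0.05 and 0 passed in the mid-p version. The lowest p was that of deletions from 500 bp to under 1000 bp, with 18 of 89 deletions (20.2%, 13.2% to 29.7%) in replicate 1 and 32 of 231 (13.9%, 9.99% to 18.9%) in replicate 2 (Fisher's exact test, p = 0.171, adjusted p = 0.784). Deletions of 1000 bp or longer numbered 4 (4.49%, 1.76% to 10.99%) and 21 (9.09%, 6.02% to 13.5%). The Fisher tests count each molecule as independent, although molecules of the same type may share a parent cell. Their p-values therefore cover counting error only. The intervals are wide, and differences of several percentage points would not have been detected at this depth.

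Against the other sites, the median deletion of S7 was larger. It was 116.5 bp ± 4.95 (SD, n = 2) at S7 and 24.6 bp ± 8.32 (SD, n = 6) in the samples of S1, S18 and S28, which ran from 13.5 to 36 bp and did not overlap S7. An exact two-sided permutation test over samples gave p = 0.0357, the smallest that 28 splits allow (adjusted p = 0.0429 over 6 tests). Here and below the test treats the 8 samples as independent, although each of the 4 sites gave 2 of them. It does not measure the spread between sites. Deletions of 500 bp or longer made up 24.7% in replicate 1 and 22.9% in replicate 2, against 4.92% to 10.9% in the other samples. Their mean share was 23.8% ± 1.26 (SD, n = 2) at S7 and 6.93% ± 2.18 (SD, n = 6) elsewhere (exact permutation test, p = 0.0357, adjusted p = 0.0429). Shares and medians were taken over deletions, and rates per UMI type were not compared. S7 had 95 indels among 10848 UMI types and 240 among 8783, and the other samples had 236 to 699 among 3745 to 7762. Deletions of 500 bp or longer numbered 22 among 10848 UMI types and 53 among 8783 at S7. At S1 they numbered 40 among 4306 and 41 among 7088. At S18 they numbered 13 among 7762 and 12 among 7342, and at S28 16 among 3745 and 13 among 4915. The larger share at S7 is one among deletions and does not mean that long deletions were more frequent per UMI type. Deletions under 10 bp numbered 2 and 11 at S7 and 70 to 220 in the other samples. Each site had its own virus and primers, whose effects and those of the site itself cannot be told apart.

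The longest S7 deletions rest on positions only. For 266 of the 320 deletions the deposited deleted sequence equalled the reference at the deposited position. The sequence was empty for 39 and differed from the reference for 15. All deletions of 1000 bp or longer, 25 in both replicates together, lacked an equal sequence, as did 23 of the 50 from 500 bp to under 1000 bp. The longest deletions with an equal sequence were 870 bp (-400 to 469) in replicate 1 and 849 bp (-402 to 446) in replicate 2. Without the molecules that lacked an equal sequence, the share of 500 bp or longer was 15.2% and 8.02% at S7, and its excess over the other sites fell from 16.9 to 7.32 percentage points (exact permutation test, p = 0.0357). The median excess then was 70.4 bp in place of 91.9 bp.

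Size also varied with the form of the molecule's name, which the sources used here do not define. Names held either a tag and its reverse complement or the mark 5end and a single tag. In replicate 1 the 51 molecules with the mark had a median of 98 bp and the 38 others one of 226.5 bp. In replicate 2 these medians were 78 bp (107 molecules) and 222 bp (124 molecules). S7 deletions were longer than those of the other sites within both forms, by 74.3 bp with the mark and by 174 bp without it (exact permutation test, p = 0.0357 for each).

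**Figure D2:**
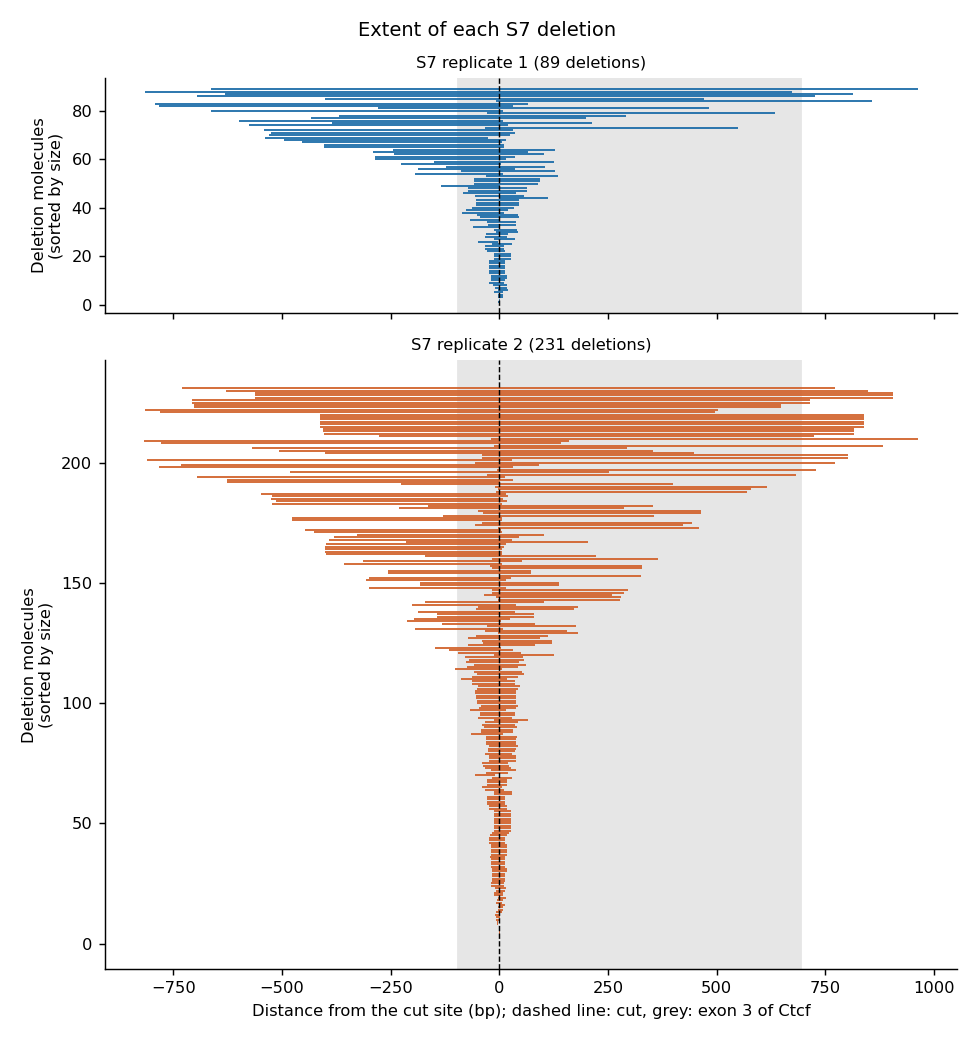
Extent of every S7 deletion as a line from its first to its last deleted base, by distance from the cut site (bp), with molecules sorted by size and exon 3 of Ctcf in grey. Replicate 1 (89 deletions) and replicate 2 (231 deletions) both hold short deletions centred on the cut and long ones that reach positions -814 and 963 in replicate 1 and -818 and 962 in replicate 2.

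S7 deletions spanned the cut almost without exception. In replicate 1, 84 of 89 deletions (94.4%) removed bases on both sides of the cut, 4 lay upstream only and 1 downstream only. In replicate 2 these numbers were 224 of 231 (96.97%), 6 and 1. In the other 6 samples the spanning share was 66.4% to 73.5%, with a mean of 70.0% ± 2.81 (SD, n = 6) against 95.7% ± 1.83 (SD, n = 2) at S7 (exact permutation test, p = 0.0357, adjusted p = 0.0429). With each distinct type counted once, the difference fell from 25.7 to 9.90 percentage points (exact permutation test, p = 0.0357). The difference rests in part on deletions that end at or next to the cut. When a deletion counted as spanning if it came within 3 bp of the cut, the difference was 2.23 percentage points and was no longer past the threshold (exact permutation test, p = 0.679). Most deletions are written at the leftmost of the placements that MH allows. With any allowed placement counted, the difference was 13.2 percentage points (exact permutation test, p = 0.0357). A deletion of 1 bp cannot span the cut as deposited, so the share depends on the mix of sizes. Among deletions under 50 bp alone, the difference was 36.1 percentage points (exact permutation test, p = 0.0357).

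Deletions of 50 bp or longer, the large deletions (LDs), were not confined to 1 flank. In replicate 1, 34 of 62 LDs reached more than 30 bp beyond the cut on both flanks and 27 on a single flank. In replicate 2, 93 of 161 did so on both flanks and 67 on a single one. The upstream part was the longer one in 43 of the 62 LDs (69.4%, 57.0% to 79.4%) of replicate 1 and in 86 of the 161 (53.4%, 45.7% to 61.0%) of replicate 2. Among deletions of 500 bp or longer it was the longer one in 14 of 22 (63.6%, 43.0% to 80.3%) and in 20 of 53 (37.7%, 25.9% to 51.2%). Counted by molecule, the replicates thus leaned different ways in the longest class, with overlapping intervals and without a test. Types on several molecules weigh more in this count. In replicate 2 the types of 1253 bp (6 molecules) and 1466 bp (3 molecules) had the longer part downstream, and that of 1350 bp (2 molecules) upstream.

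Long deletions often began upstream of exon 3, that is in intron 2. The 30 bases that held most left ends upstream of -100 were those at positions -414 to -385, a stretch chosen by its count and given as a description with no expected count beside it. Of the 110 deletions that began upstream of -100, 20 began in this stretch, 4 of the 33 in replicate 1 and 16 of the 77 in replicate 2. These 20 molecules were of 12 types, from 405 to 1253 bp, and 6 of them were of the 1253 bp type. The deposited sequence equalled the reference for 10, was empty for 9 and differed for 1. The stretch is shown because the most frequent long type begins in it. The 6 molecules of that type are part of the count by which the stretch was chosen.
Left-end stretch, chr8:105663435-105663464, plus strand: ttcttccatcaaagaggaagatatctatta

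S7 deletions were diverse, and the most frequent types were mostly shorter than 50 bp. The 320 deletions were of 229 types, a type being a start position with a deleted length. Of these, 184 types were seen on 1 molecule only, 45 on 2 or more and 16 on 3 or more. Of these 45 recurrent types, 19 were shorter than 50 bp and 26 were of 50 bp or longer, out of 40 and 189 types of either size. They held 76 of the 97 deletions shorter than 50 bp (78.4%) and 60 of the 223 of 50 bp or longer (26.9%). The 10 most frequent types held 60 molecules (18.75% of deletions), 18 in replicate 1 and 42 in replicate 2, and 9 of these 10 were shorter than 50 bp. The tenth had 3 molecules, as had 6 further types. No tag was shared by the replicates (0 tags). Within a replicate, molecules of the same type had tags of 12 bases that differed at 4 or more positions, so their tags were distinct. Whether each tag stands for its own starting molecule was not tested.

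The most frequent type was a 39 bp deletion from -12 to 26, found on 3 molecules in replicate 1 and 9 in replicate 2, with the MH CCA. A 38 bp deletion from -24 to 13 followed, with 6 molecules in replicate 1 and 3 in replicate 2. The 37 bp deletion from -20 to 16 was on 2 and 5 molecules, the 42 bp deletion from -28 to 13 on 1 and 4, and the 34 bp deletion from -20 to 13 on 1 and 4. These last 4 types join the A- and G-rich repeats upstream of the cut to the similar stretch downstream of it, with the MH AAGAA or AAGA. The 44 bp deletion from -33 to 10, with 2 and 1 molecules, has the MH AGGAA of the same kind. In all, 45 S7 deletions of 15 types, 15 in replicate 1 and 30 in replicate 2, had an MH of 4 bp or more made of A and G only, out of 67 deletions with an MH of that length. Their median size was 41 bp. The share to be expected by chance between flanks rich in A and G was not computed.

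Deletions at the cut itself were few. The 2 bp deletion from -1 to 0, which removes a G on either side of the cut, was on 1 molecule in replicate 1 and 4 in replicate 2. The 12 bp deletion from -4 to 7, with the MH GCC, was on 2 molecules in each replicate, and the 21 bp deletion from -12 to 8 on 1 and 2. The 31 bp deletion from -18 to 12 was on 4 molecules of replicate 2 and on none of replicate 1. The shortest deletions of replicate 1 were of 2 bp, the 1 just named and another from -2 to -1 (1 molecule). Those of replicate 2 were of 1 bp, at -1 (2 molecules) and at -3 (1 molecule).

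Recurrent types of 50 bp or longer were mostly found in 1 replicate. The 1253 bp deletion from -413 to 839 (chr8:105663436-105664688) was on 6 molecules of replicate 2 and none of replicate 1. Its deleted sequence was empty on all 6 molecules, 5 of which were named with the mark 5end and a single tag. A 1466 bp deletion from -561 to 904 was on 3 molecules of replicate 2 only, also without an equal deposited sequence. Deletions of 70 bp (-31 to 38) and 61 bp (-23 to 37) were on 3 molecules each of replicate 2, and a 98 bp deletion (-53 to 44) on 3 molecules of replicate 1. The longest deletion of replicate 1 ran from -664 to 963 (1628 bp, chr8:105663185-105664812) and that of replicate 2 from -729 to 771 (1501 bp, chr8:105663120-105664620), each on 1 molecule and without a deposited sequence.

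**Figure D3:**
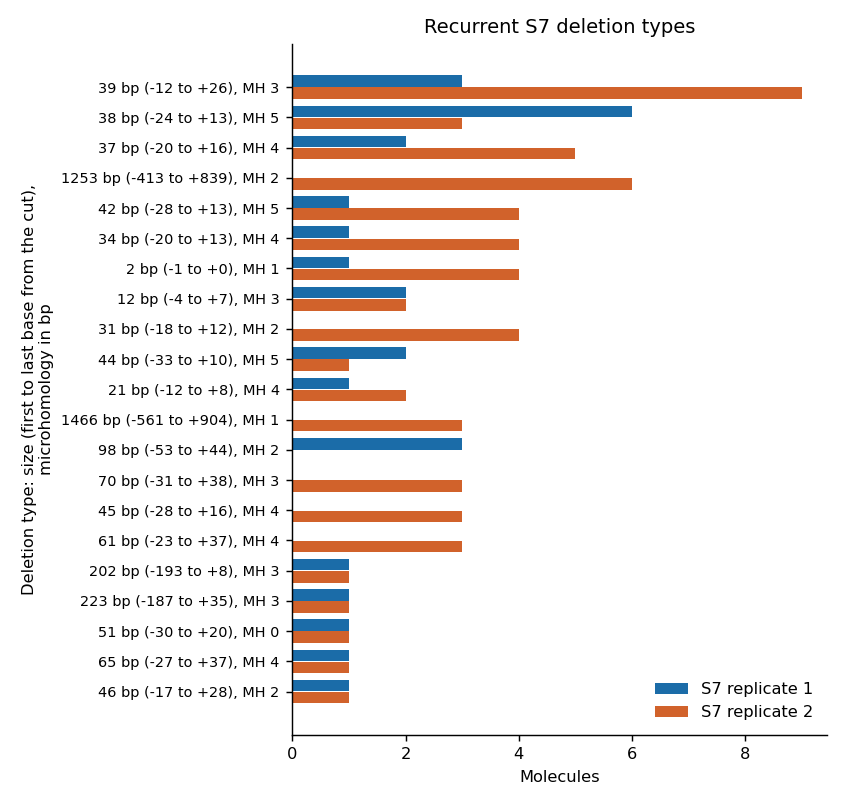
Number of molecules of each S7 deletion type found on 3 or more molecules or in both replicates, with its size, its first and last base from the cut site (bp) and the length of its microhomology (MH, bp). The 39 bp type has 3 and 9 molecules, the 38 bp type 6 and 3, and the 1253 bp type 0 and 6 in replicates 1 and 2.

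The replicates shared 14 deletion types. These were 18.9% of the 74 types of replicate 1 and 8.28% of the 169 types of replicate 2 (Jaccard index 0.0611). They held 24 of the 89 deletion molecules (27.0%) of replicate 1 and 39 of the 231 (16.9%) of replicate 2. Sharing was mostly a matter of short deletions. Below 50 bp, 10 of the 17 types of replicate 1 were also among the 33 of replicate 2 (Jaccard index 0.25). At 50 bp or longer, 4 of the 57 types of replicate 1 were among the 136 of replicate 2 (Jaccard index 0.0212). Beside the types given above, the shared ones were deletions of 46 bp (-17 to 28), 51 bp (-30 to 20), 65 bp (-27 to 37), 202 bp (-193 to 8) and 223 bp (-187 to 35), each on 1 molecule per replicate. At the other sites the index over all sizes was 0.112 (S1), 0.156 (S18) and 0.139 (S28). Below 50 bp it was 0.255, 0.316 and 0.254 there, and S7 lay close to S1 and S28. At 50 bp or longer it was 0.0468, 0.0309 and 0.0516. Short deletions were thus the more often shared at every site. The index over all sizes depends on the mix of sizes and on the number of molecules, which was lowest in S7 replicate 1.

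Fewer S7 molecules shared their type with another molecule of the same sample. Deletions of a type found on 1 molecule were 73.0% of the deletions in replicate 1 and 58.0% in replicate 2, against 34.0% to 43.8% in the other samples. The mean was 65.5% ± 10.6 (SD, n = 2) at S7 and 37.7% ± 4.31 (SD, n = 6) elsewhere (exact permutation test, p = 0.0357, adjusted p = 0.0429). This share also falls with the number of deletions sampled. That number was 89 and 231 at S7, 366 and 605 at S1, 194 and 166 at S18, and 318 and 264 at S28. Recurrence also varied with size. Over both S7 replicates, types on 2 or more molecules held 78.4% of deletions shorter than 50 bp and 26.9% of longer ones. Whether the number or the sizes of the deletions account for the difference was not tested. The most frequent type held 6.74% and 3.90% of S7 deletions, against 6.44% to 14.9% elsewhere, and the difference of means, -4.44 percentage points, did not pass (exact permutation test, p = 0.214, adjusted p = 0.214).

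**Figure D4:**
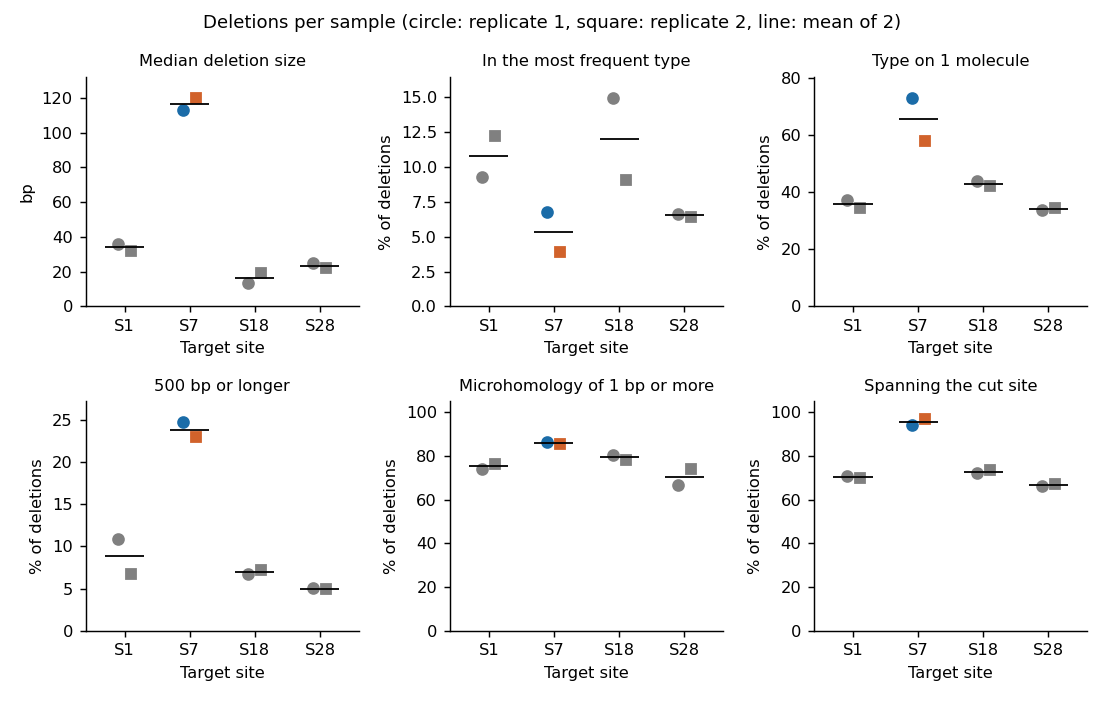
The 6 measures compared between sites, with 1 point per edited sample (median deletion size in bp, the rest in % of deletions) and the mean of the 2 samples of each site as a line. S7 lies above the other 6 samples in median size (113 and 120 bp), in types on 1 molecule, in deletions of 500 bp or longer, in microhomology and in spanning the cut, and overlaps them in the share of the most frequent type.

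MH was present at most S7 junctions. In replicate 1, 77 of 89 deletions (86.5%, 77.9% to 92.1%) had an MH of 1 bp or more and 42 (47.2%, 37.2% to 57.5%) one of 3 bp or more. In replicate 2 these were 198 of 231 (85.7%, 80.6% to 89.6%) and 84 (36.4%, 30.4% to 42.7%). The longest MH was 7 bp in both. In the other 6 samples the share with 1 bp or more was 66.7% to 80.4%, with a mean of 74.97% ± 4.78 (SD, n = 6) against 86.1% ± 0.568 (SD, n = 2) at S7 (exact permutation test, p = 0.0357, adjusted p = 0.0429). The call did not hold at an MH of 2 bp or more (exact permutation test, p = 0.179), without S1 replicate 1 or without S28 replicate 2 (exact permutation test, p = 0.0952 for each, differences of 10.96 and 10.9 percentage points). It also did not hold in the molecules named with a tag and its reverse complement, where the difference was 5.99 percentage points (exact permutation test, p = 0.393). Among those, the S18 samples stood at 85.3% and 89.8% and overlapped S7, at 86.8% and 81.5%.

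The excess of MH lay in the short deletions. Below 50 bp, MH was present in 25 of 27 deletions (92.6%, 76.6% to 97.9%) of replicate 1 and in 65 of 70 (92.9%, 84.3% to 96.9%) of replicate 2. The other samples ran from 58.6% to 77.7% (difference of means 23.1 percentage points, exact permutation test, p = 0.0357). Sizes within this class differed between sites, as deletions under 10 bp were rarer at S7. From 10 to 49 bp, MH was present in 96.0% and 91.5% at S7 and in 69.6% to 83.3% in the other samples, given without a test. At 50 bp or longer, it was present in 52 of 62 (83.9%, 72.8% to 91.0%) and 133 of 161 (82.6%, 76.0% to 87.7%), and S7 lay within the range of the other samples, 80.4% to 87.3% (difference -1.10 percentage points, exact permutation test, p = 0.643). These splits by size were added after the data had been seen. MH was also shorter in the LDs. Their mean was 2.05 bp in replicate 1 and 1.87 bp in replicate 2, against 3.37 and 2.79 bp in deletions under 50 bp.

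**Figure D5:**
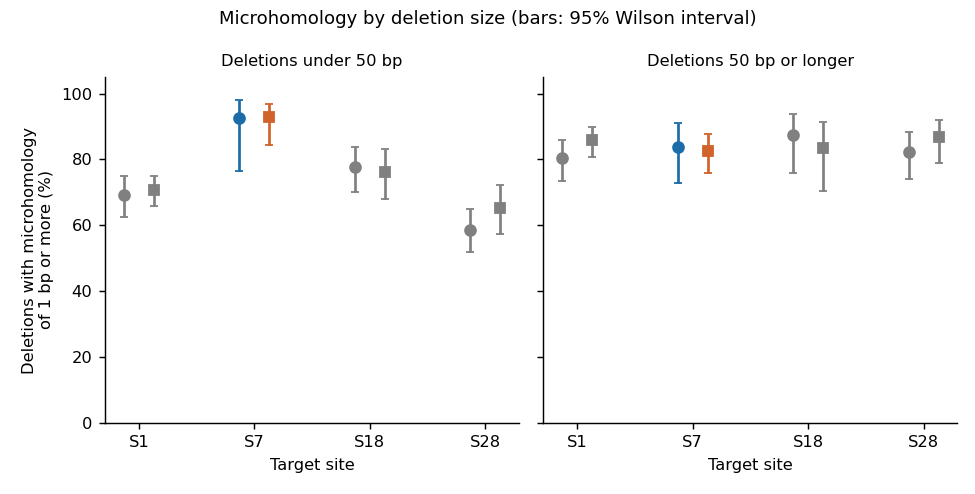
Share of deletions with a microhomology of 1 bp or more (%) in each edited sample, for deletions under 50 bp (left) and of 50 bp or longer (right), with 95% Wilson intervals as bars. S7 stands at 92.6% and 92.9% on the left, above the other 6 samples, and at 83.9% and 82.6% on the right, within their range.

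Placed on the gene, S7 deletions removed coding sequence of exon 3 and often its start. The start codon was removed in whole or part by 35 of 89 deletions (39.3%, 29.8% to 49.7%) in replicate 1 and 79 of 231 (34.2%, 28.4% to 40.5%) in replicate 2, of which 26 and 48 had a deposited sequence equal to the reference. The last 2 bases of intron 2, part of the splice site before exon 3, were hit by 33 (37.1%, 27.8% to 47.5%) and 77 (33.3%, 27.6% to 39.6%). The first 2 bases of the intron after exon 3 were removed less often, by 4 (4.49%, 1.76% to 10.99%) and 23 (9.96%, 6.73% to 14.5%). The whole exon was lost from 3 and 17 molecules, none of which had an equal deposited sequence (0 of 20). No deletion was seen to reach exon 4, which begins at position 1007 (0 of 320 molecules). The ends of the amplicon limit how far a deletion can be seen.

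Deletions inside the coding part of exon 3 numbered 54 in replicate 1 and 146 in replicate 2. A deletion of 96 bp (-85 to 10) in replicate 1 is among these and also removed part of the start codon. The deleted length was a multiple of 3, the length that keeps the reading frame where the start codon is intact, in 22 (40.7%, 28.7% to 54.0%) and 55 (37.7%, 30.2% to 45.8%). Counted by type it was 17 of 40 and 36 of 100. Of all lengths 1 in 3 is a multiple of 3, and both intervals above include that share. The most frequent type, of 39 bp, and those of 42, 12 and 21 bp keep the frame, whereas those of 38, 37, 34, 2, 31 and 44 bp shift it. RNA and protein were not measured.

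Insertions were rare at S7. A single added G at position -1, the same base as the one at that position just left of the cut, was on 2 molecules of replicate 1 and 1 of replicate 2. An insertion of 14 bp was on 1 molecule of replicate 2. The 8 analysed insertions of 20 bp or longer, the large insertions (LIs), were of different kinds. In replicate 2, 3 of them had their best match in the Ctcf locus itself. They are shown for that match, with the part that matched GRCm38 over its whole length in capitals.
39 bp insertion, match at chr8:105665172-105665208: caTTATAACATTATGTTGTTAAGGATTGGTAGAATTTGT
41 bp insertion, match at chr8:105663485-105663524: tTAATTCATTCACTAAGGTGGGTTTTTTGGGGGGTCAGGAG
47 bp insertion, match at chr8:105664309-105664347, minus strand: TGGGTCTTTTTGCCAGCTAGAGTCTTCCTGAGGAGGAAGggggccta

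The matched part of the 39 bp insertion lies at positions 1323 to 1359, downstream of exon 4, that of the 41 bp insertion at -364 to -325 in intron 2 (with a weaker second match of 28 bp at 96.4% identity on chromosome 5), and that of the 47 bp insertion, inverted, at 460 to 498 in exon 3. The 89 bp insertion of replicate 2 matched 344 places on 13 chromosomes, the best with 96.6% identity over 87 bp on chromosome X. The remaining 4, of 56 and 134 bp in replicate 1 and 35 bp on 2 molecules of replicate 2, had no match in the mouse genome (0 hits). The 56 bp insertion shared stretches of 15 bases with both 35 bp insertions. The sequence of the virus was not compared here. An inversion was found on 1 molecule of each replicate, of 362 bp (-376 to -15) in replicate 1 and of 282 bp (-239 to 42) in replicate 2.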

How the data were processed

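Genomic DNA of GFP+ MuSCs was measured by IDM-seq in 8 edited samples, replicates 1 and 2 at each of 4 sites, grouped by sample title. The 4 libraries marked wt were not analysed here, so edited and unedited S7 were not compared. The titles number the replicates only, and p-values measure the spread between these samples. The splits treat the 8 samples as independent, although each of the 4 sites gave 2 of them, and they also break up the samples of a site. The p-values therefore do not measure the spread between sites. The SDs of the other samples likewise mix S1, S18 and S28. From Nanopore R10 reads with both primers, the authors called variants per UMI with VAULT (default settings, version and genome build not given in the sources used here), set substitutions and indels that did not overlap the 30 bp on each side of the cut to wild type, and removed indels seen in unedited libraries. An edit that looks like background is lost by that removal, and amplification can favour short molecules.

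The deposited counts of UMI types, indels, insertions, deletions, LIs (20 bp or longer) and LDs (50 bp or longer) were read with the deposited fraction of LIs and LDs among indels. A deposited list gave the position, length and sequence of each event. In it, 55 lines were blank and 0 columns of per-sample values were left unused. S7 had 338 lines for 334 molecules. Where a molecule had 2 lines (4 molecules), the longer event was kept. The number at the start of each molecule's name, for which the sources used here give no meaning, was not used.

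MH was the number of bases by which a deletion could slide in the reference (GRCm38) without changing its product. Insertions of 20 bp or longer were searched with blastn 2.17.0 (word size 11, e-value up to 0.01). Sequences came from RefSeq GRCm38, and gene models from GENCODE. Per-sample values of 6 measures were compared between S7 and the other sites by two-sided exact permutation tests (28 splits) and adjusted by Benjamini-Hochberg, with a threshold of 0.05. The 6 measures come from the same molecules, and 5 of them reached the smallest p possible, which adjusts to 0.0429. Size classes of the replicates were compared by Fisher's exact test. Python 3.11.15 and scipy 1.17.1 were used, and the code was tested on simulated data. Named were the 10 deletion types with most molecules, all types shared by the replicates, the shortest and longest deletions and every LI. The members, measures and lists were chosen with earlier results of these data known.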

Additional observations from a re-analysis of the deposited data

How the results depend on the processing

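Of 108 alternative values, 83 left the call as it was, 20 lost the call, 2 gained it, 2 were counts that moved and 1 called difference reversed. Of the 83, 2 changed sign without being called before or after: with each type counted once, replicate 2 minus replicate 1 was -0.928 percentage points for deletions of 1 to 2 bp and 0.448 for those from 50 bp to under 200 bp. The replicate numbers were not stated to pair samples of different sites, and with 2 samples a site, whose deviations mirror each other, pairing could not be checked. With the replicate number as a block, 16 arrangements allow no exact p below 0.0625. All 5 called differences reached that value and could not have passed, namely 91.9 bp in median size, 27.9 percentage points in types on 1 molecule, 16.9 in deletions of 500 bp or longer, 11.1 in MH and 25.7 in spanning the cut. For the most frequent type the block gave an exact permutation p of 0.25.

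Without either S7 sample, 7 splits allow no exact p below 0.143, so no call could be kept. Over all samples left out in turn, the median difference was 88.4 to 95.4 bp. The other differences, in percentage points, were -5.86 to -3.02 for the most frequent type, 20.3 to 35.4 for types on 1 molecule, 16.01 to 17.8 for 500 bp or longer, 9.48 to 12.2 for MH and 24.4 to 27.0 for spanning the cut. Without S1 replicate 1 or S28 replicate 2, only the MH call was lost among these 5.

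The MH difference was 10.4 percentage points at 2 bp or more and 5.99 in molecules named with a tag and its reverse complement (exact permutation p = 0.179 and 0.393), and neither passed. It reversed to -1.10 in deletions of 50 bp or longer. Spanning within 3 bp gave 2.23. The share of the most frequent type passed in molecules named with a tag and its reverse complement (-3.15) and with types within 5 bp merged (-40.8), where merging joins chains of neighbouring types (exact permutation p = 0.0357 for each). Merging left 9 shared types, and matching on length alone gave 25, in place of 14. The splits by size, by name form, by placement and by deposited sequence were added with the data in view. The 89 and 231 deletions of S7 limit the precision.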
